A study of Homo sapiens with 8 samples.

Results

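Replication-dependent histone genes were followed by RNA sequencing in mesenchymal stromal cells made from the human embryonic stem cell line H9, in 8 libraries. Members were the genes named by the older symbols HIST1H to HIST4H with 20 or more counts summed over the libraries. These were 54 of 73 such genes, in a table of 23354 genes. By histone type they were 6 of 6 H1 genes, 12 of 18 H2A, 16 of 20 H2B, 11 of 14 H3 and 9 of 15 H4. Of the genes left out, 13 had no count in any library and 6 had counts below the threshold. Just inside the threshold lay HIST1H3F and HIST1H4K, each with 20 counts, and HIST1H1T with 22. Just outside lay HIST1H2AL and HIST1H2BI, each with 18, and HIST1H4B with 14.

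Each library was a different condition. The 3 fresh libraries were of cells taken at 0 h, of cells kept 1 h in medium and of cells kept 1 h with DMSO. DMSO is the usual permeating cryoprotectant. In 2 libraries the cells had been frozen in DMSO after 0 h or 1 h in it. In the 3 osmolyte-frozen libraries the cells had been frozen in multicomponent solutions labelled SGC and SGI, after 1 h, and SMC, after 2 h. The osmolyte solutions were cooled faster than DMSO, so solution and cooling rate cannot be told apart. There was no unfrozen library in any osmolyte solution. The labels do not say that libraries came from separate cultures, so the p-values below rest on the spread among libraries that also differ in condition, and part of that spread may be technical.

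Core histones H2A, H2B, H3 and H4 form the protein spool around which DNA is wound, and the linker histone H1 binds where DNA enters and leaves it. Their replication-dependent genes lie in clusters, mostly lack introns, and are transcribed mainly in S phase, when new DNA must be packaged. Most of their mRNAs have no poly(A) tail. They end instead just after a short stem-loop, which is bound by SLBP and cut with the help of the U7 small nuclear RNP. A few of these genes are known for also making longer, polyadenylated mRNAs that persist in cells that divide little. HIST1H1C, HIST1H2AC, HIST1H2BC, HIST1H2BD, HIST1H2BK and HIST2H2BE were taken as such genes here. How RNA was selected for the libraries is not given in the sources used here. A library primed or selected on poly(A) recovers the tailless mRNAs poorly, so levels below are of the RNA that was captured and counted.

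Library totals ranged from 41198716 to 51166666 counts. Every count was even, so intervals and the limits set by a count of 0 were computed on halved counts. They cover counting error only. The 6 markers of mesenchymal stromal cells, NT5E, THY1, ENG, PDGFRB, VIM and COL1A1, summed to between 32700 and 48700 CPM (counts relative to the TMM-scaled library total) in each library. The 6 markers that such cells should lack summed to between 2.01 and 2.74 CPM, with HLA-DRA at 0 in all 8 libraries and CD34 the highest, at 1.53 to 2.3. In bulk RNA, fewer cells of a type and less RNA per cell cannot be told apart.

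The stem-loop is shown first because it is the feature that separates these mRNAs from others. It was searched for in GENCODE 29 transcripts as GGNNNT, a loop of TTNN and the reverse complement of the stem, 16 bases in all. A match was found in a transcript of 23 of the 54 members. These were 4 H2A, 11 H2B, 3 H3 and 5 H4 genes. For many of the rest the annotated transcript was shorter than the deposited length. It was 642 bases against 732 for HIST1H1C, 381 against 839 for HIST1H2BK and 312 against 354 for HIST1H4K. A stem-loop past the annotated end could not be found, so a missing match does not show that a gene lacks one. Of 83048 other protein-coding transcripts, 57 held a match, or 0.0686%. The sites below are those of members whose levels are described later, 5′ to 3′ on the gene's strand in GRCh38, with the stem-loop in capitals. HIST1H2AC lies at chr6:26124664-26124689 (+), HIST1H2BC at chr6:26123467-26123492 (−), HIST1H2BD at chr6:26158582-26158607 (+), HIST2H2BE at chr1:149886183-149886208 (−), HIST1H4E at chr6:26204996-26205021 (+) and HIST1H4H at chr6:26285126-26285151 (−).
HIST1H2AC: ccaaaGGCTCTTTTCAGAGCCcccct
HIST1H2BC: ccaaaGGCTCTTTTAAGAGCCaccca
HIST1H2BD: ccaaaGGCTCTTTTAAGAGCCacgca
HIST2H2BE: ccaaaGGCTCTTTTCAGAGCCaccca
HIST1H4E: tcaaaGGCCCTTTTCAGGGCCgccca
HIST1H4H: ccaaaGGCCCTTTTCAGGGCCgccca

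The stem of H4 members differed from that shared by the H2A, H2B and H3 members with a match. Forms with the same stem differed in the last base of the loop. The form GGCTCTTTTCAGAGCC was found in 4 H2A, 8 H2B and 1 H3 members, and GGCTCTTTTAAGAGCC in 3 H2B and 2 H3 members. H4 members had the other stem, in the form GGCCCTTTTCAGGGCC in 4 members and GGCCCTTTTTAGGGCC in HIST1H4I. The annotated transcripts also differed in how far they ran past the stem-loop. A transcript of HIST2H2BE ran 1729 bases past it, one of HIST1H2AC 1128, one of HIST1H4E 1022 and the longest of HIST1H4H 1655. Transcripts of HIST1H2BC and HIST1H2BD that held it ran 116 and 39 bases past it. No match was found in the annotated transcripts of HIST1H1C and HIST1H2BK, which says only that these letters are not in those transcripts.

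The promoters of 47 members were matched in RefSeq (GRCh38.p14). In the 250 bases before the start, on both strands, the element ATTTGCAT, the site of POU2F1 (OCT1), was found in 8 of 11 H2A and 11 of 15 H2B promoters. It was found in 1 of 8 H3 promoters and in none of the 6 H1 and 7 H4 promoters, against 2.03% of 27305 promoters. The element AAACACA, known as the H1 box, was in 6 of 6 H1 promoters and in no other member's, against 5.95% of all promoters. CCAAT was in 41 of the 47, among them 1 of the 7 of H4, against 37.0% of all promoters. TATAAA was in 32 of the 47, against 13.0%. Printed below are 200 bases before the start for 5 members, 4 of which are those that passed a test described later, with these motifs in capitals, also where they lie on the other strand. HIST1H1C is at chr6:26056471-26056670 (−), HIST1H2BK at chr6:27146859-27147058 (−), HIST1H2BD at chr6:26157921-26158120 (+), HIST1H4E at chr6:26204410-26204609 (+) and HIST1H2AC at chr6:26123972-26124171 (+). HIST1H4E had none of the 4 motifs in the stretch shown.
HIST1H1C: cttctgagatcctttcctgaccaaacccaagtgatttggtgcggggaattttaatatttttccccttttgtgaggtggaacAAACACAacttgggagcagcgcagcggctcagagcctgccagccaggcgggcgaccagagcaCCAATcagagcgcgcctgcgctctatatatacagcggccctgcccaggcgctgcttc
HIST1H2BK: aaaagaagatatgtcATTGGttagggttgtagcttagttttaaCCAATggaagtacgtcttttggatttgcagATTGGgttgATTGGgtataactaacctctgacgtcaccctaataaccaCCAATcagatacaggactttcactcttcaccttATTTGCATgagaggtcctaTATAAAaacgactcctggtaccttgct
HIST1H2BD: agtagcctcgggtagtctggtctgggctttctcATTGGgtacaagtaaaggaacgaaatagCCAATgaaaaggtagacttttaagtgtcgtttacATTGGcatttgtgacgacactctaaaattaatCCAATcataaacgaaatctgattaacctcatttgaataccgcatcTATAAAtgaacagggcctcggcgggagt
HIST1H4E: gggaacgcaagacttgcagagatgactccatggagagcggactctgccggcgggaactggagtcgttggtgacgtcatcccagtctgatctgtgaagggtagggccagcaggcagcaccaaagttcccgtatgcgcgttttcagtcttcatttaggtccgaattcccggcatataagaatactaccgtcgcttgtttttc
HIST1H2AC: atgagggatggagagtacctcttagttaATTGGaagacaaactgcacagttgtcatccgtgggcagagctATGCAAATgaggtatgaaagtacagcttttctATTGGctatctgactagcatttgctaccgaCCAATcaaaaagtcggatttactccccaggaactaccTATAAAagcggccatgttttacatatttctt

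Per kilobase, histone members were weakly represented. Levels between genes are compared here as deposited RPKM, which scales counts by coding length and library total, averaged over the 8 libraries. The median member stood at 0.275 RPKM, against 3.71 for all genes tested. The sets passed unlike filters, since 23 of the 54 members had too few counts to be tested, which lowers the member median. Only 10 of the 54 members reached 1 RPKM. Replication-independent histone genes, most of whose mRNAs are polyadenylated in the usual way, had a median of 15.5 RPKM over 12 genes. The 42 S-phase genes of DNA replication had a median of 5.08. Altogether the 54 members held 21124 counts, 0.0059% of all counts.

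**Figure D1:**
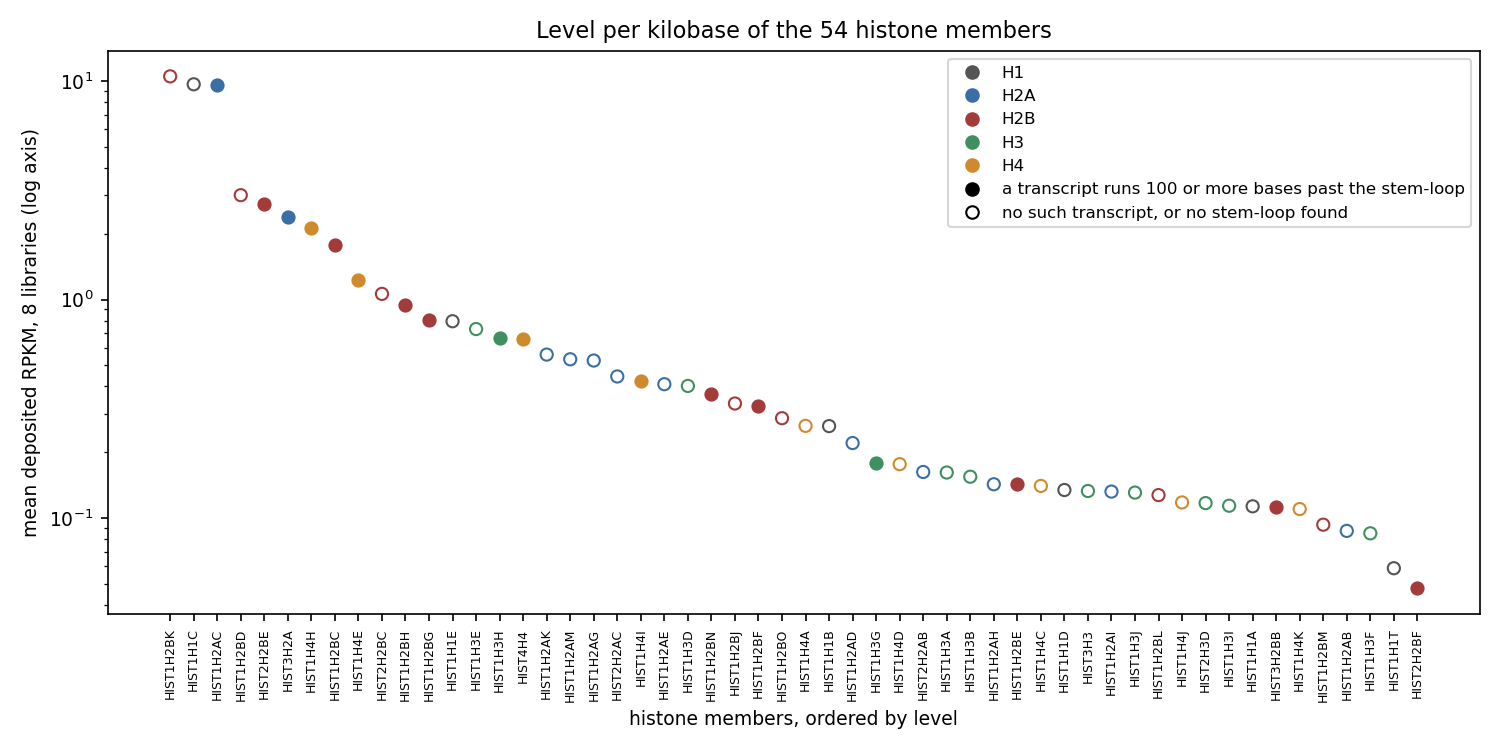
Mean deposited RPKM over 8 libraries (log axis) for the 54 members in order of level, coloured by histone type. Filled points are members with an annotated transcript running 100 or more bases past the stem-loop, open points the rest; HIST1H2BK, HIST1H1C and HIST1H2AC stand apart at the left, at 9.61 to 10.5 RPKM.

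The order was led by 3 genes of 3 types. HIST1H2BK (H2B) stood at 10.5 ± 1.54 RPKM (SD, n = 8 libraries), HIST1H1C (H1) at 9.66 ± 2.78 and HIST1H2AC (H2A) at 9.61 ± 1.58. The means of these 3 overlapped within their SD, which also holds differences between conditions. Their order within a condition was not tested. A step followed, to HIST1H2BD at 3.00 ± 0.827, HIST2H2BE at 2.75 ± 0.746, HIST3H2A at 2.38 ± 0.735 and HIST1H4H at 2.13 ± 0.692. Neighbours among these 4 also overlapped within their SD. The order depends on the deposited length, which was 2223 bases for HIST2H2BE and 546 for HIST1H2AC. In counts summed over the libraries HIST2H2BE, at 3220, lay above HIST1H2AC, at 2746. The leading H4 genes after HIST1H4H were HIST1H4E at 1.23 ± 0.635 and HIST4H4 at 0.66 ± 0.154 RPKM. No H3 gene reached 1 RPKM, with HIST1H3E highest at 0.732 ± 0.238, HIST1H3H at 0.665 ± 0.276 and HIST1H3D at 0.402 ± 0.144. Within H1, HIST1H1E followed HIST1H1C at 0.795 ± 0.259 and HIST1H1B at 0.263 ± 0.178. The third H2A gene, HIST1H2AK, stood at 0.56 ± 0.315 RPKM.

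The annotated transcript end was set beside these levels, as a description. The 17 members with a transcript running 100 or more bases past the stem-loop had a median of 0.665 RPKM, from 0.0477 to 9.61. The 6 members whose transcripts with a match all stopped within 100 bases of it had a median of 0.133. Among these was HIST1H2BD, with a match in only 1 of its 2 annotated transcripts. The 31 members without a match had a median of 0.176, and many of their annotated transcripts were short, as described above. Leaving out the 6 genes known for polyadenylated mRNA, the 3 medians were 0.541 over 14 members, 0.132 over 5 and 0.162 over 29. The ranges overlapped.

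Those 6 genes held 16064 of the 21124 member counts, or 76.0%. Their share was lowest in fresh cells after 1 h with DMSO, at 71.1% (95% Wilson interval 68.4 to 73.6). It was highest in cells frozen in SGC, at 80.1% (78.2 to 82.0), and the median library had 75.7%. Shares did not separate the 3 groups: fresh libraries had 71.1% to 76.9%, DMSO-frozen libraries 72.2% and 78.1%, and osmolyte-frozen libraries 74.4% to 80.1%.

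Copies and neighbours limit some of these values. HIST2H2AA3 and HIST2H2AA4, HIST2H3A and HIST2H3C, and HIST2H4A and HIST2H4B are near-identical pairs that share a span in the deposited table, and all 6 stood at 0 counts. They are therefore no members. HIST2H2BC, a member with 324 counts, overlaps all 6 of them. It is listed in RefSeq under the pseudogene symbol H2BC20P and was kept in the H2B sums. HIST1H2BK overlaps HIST1H4I, HIST1H2AD overlaps HIST1H3D, and the deposited span of HIST2H2BF covers several other genes. The strand setting of the counting is not given in the sources used here, so reads in such overlaps cannot be assigned with certainty.

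Summed over members, H1 and H2B mRNA stood higher in all 3 osmolyte-frozen libraries than in any other library, while H2A did not. These sums are of CPM on TMM-scaled library sizes, without a test, since the members were chosen with earlier results known. H1 summed to 11.1 CPM in fresh cells at 0 h, 11.0 in those kept 1 h with DMSO and 10.1 in those kept 1 h in medium. It summed to 8.13 and 9.18 CPM in cells frozen in DMSO after 0 h and 1 h, and to 16.7, 14.7 and 15.1 in those frozen in SGC, SGI and SMC. The 3 groups did not overlap, and the DMSO-frozen libraries were the lowest. H2B summed to 28.7, 27.9 and 28.1 CPM in fresh cells, in the same order. In frozen cells it was 25.4 and 26.1 CPM with DMSO and 43.0, 30.8 and 33.3 with SGC, SGI and SMC. Here too the groups did not overlap, and SGC was the highest.

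H2A, H3 and H4 gave no such order. H2A summed to 11.5 ± 0.843 CPM in fresh cells (SD, n = 3), 12.4 ± 2.57 in DMSO-frozen cells (n = 2) and 11.4 ± 0.309 in osmolyte-frozen cells (n = 3). H3 summed to 2.24 ± 0.19, 2.03 ± 0.351 and 2.32 ± 0.633 CPM in the same groups. H4 summed to 2.87 ± 0.962, 2.18 ± 0.686 and 3.49 ± 0.305 CPM. The H4 libraries frozen in osmolyte solutions lay above both frozen in DMSO but overlapped the fresh ones.

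**Figure D2:**
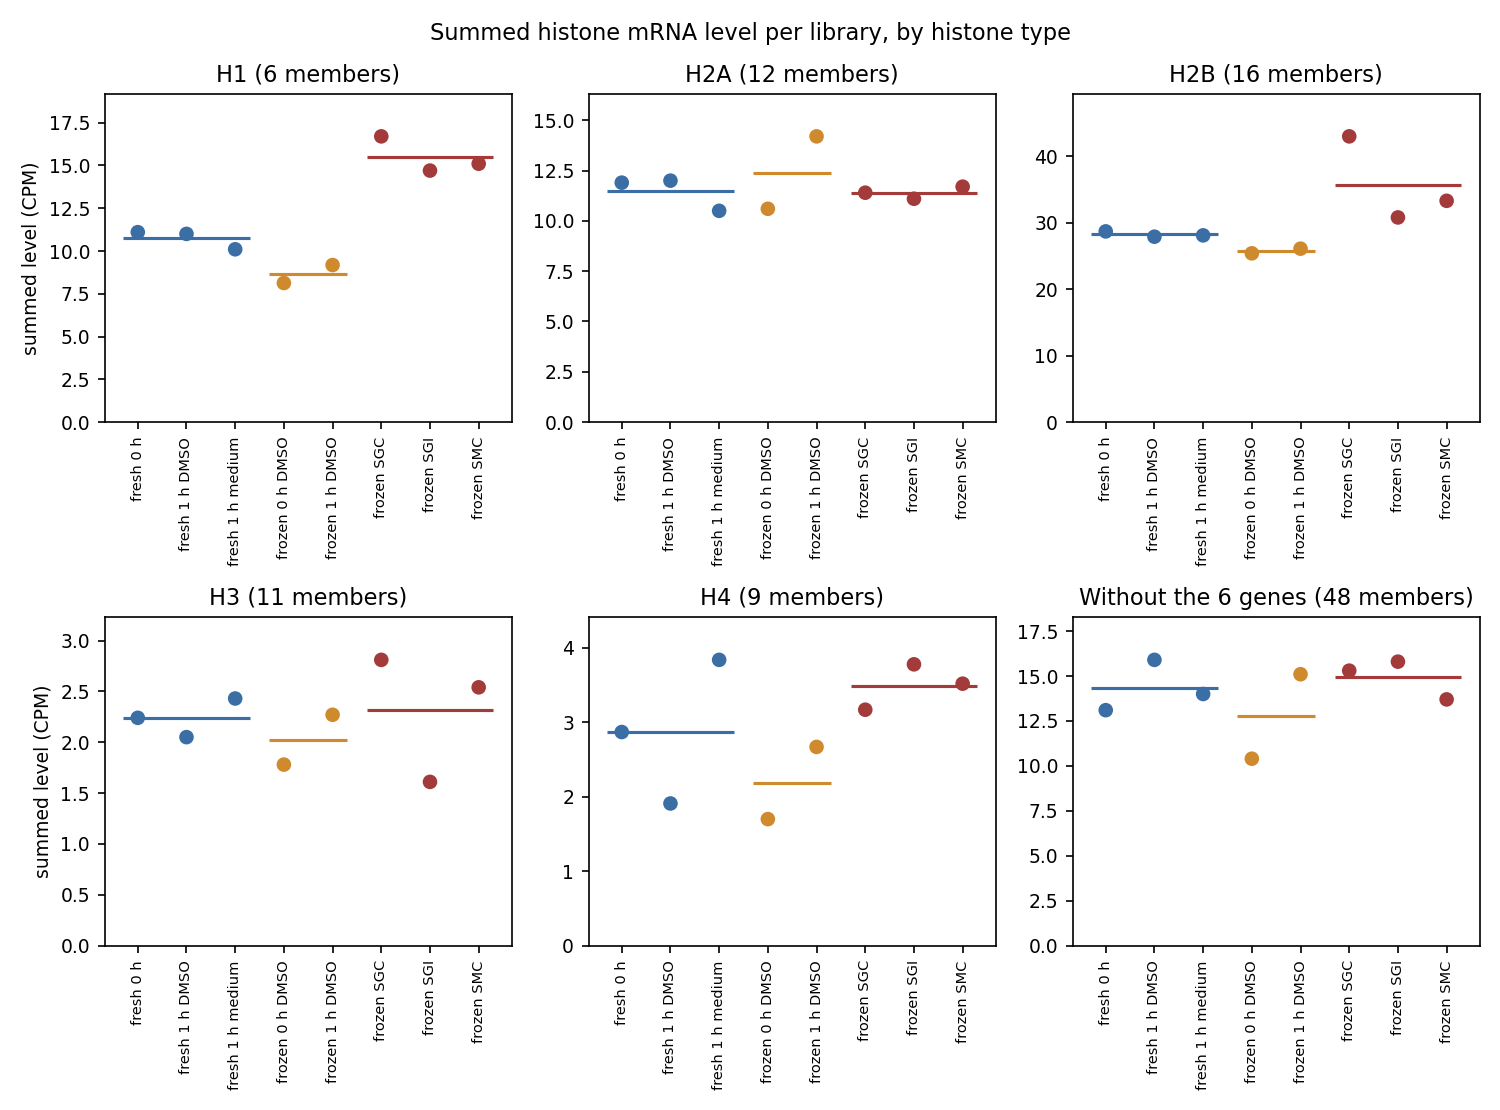
Summed CPM of the members in each of the 8 libraries (points), by histone type, with group means as lines and y axes from 0. Osmolyte-frozen libraries (red) stand above the rest for H1, at 14.7 to 16.7, and H2B, at 30.8 to 43.0; the last panel sums the 48 members outside the 6 genes known for polyadenylated mRNA, where the groups overlap.

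The 6 genes known for polyadenylated mRNA summed to 41.2 ± 2.33 CPM in fresh, 38.2 ± 1.49 in DMSO-frozen and 53.4 ± 7.89 in osmolyte-frozen libraries. The other 48 members summed to 14.3 ± 1.41, 12.8 ± 3.33 and 15.0 ± 1.09 CPM. Osmolyte-frozen cells therefore had 1.4 times the DMSO-frozen mean in the 6 genes, without overlap, and 1.17 times in the other 48, with overlap. The 6 genes did not all move alike. HIST1H2AC had a lower mean in osmolyte-frozen libraries, at 7.05 CPM against 8.51 in DMSO-frozen ones, while the rest of the 6 had higher means. A difference between the 6 genes and the other members was not tested. Without HIST1H1C, the other 5 H1 members summed to 1.8 ± 0.733, 1.55 ± 0.287 and 1.32 ± 0.446 CPM. The 12 H2B members outside the 6 genes summed to 3.73 ± 0.421, 3.13 ± 0.578 and 3.51 ± 0.229 CPM. In neither of these remainders were the osmolyte-frozen libraries set apart.

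Tests were run gene by gene, and 31 of the 54 members had counts high enough to enter them: 4 H1, 8 H2A, 12 H2B, 3 H3 and 4 H4. The other 23 had at most 52 counts over the 8 libraries. The question of the first comparison was how cells frozen in osmolyte solutions differed from cells frozen in DMSO. By edgeR's quasi-likelihood test with Benjamini-Hochberg adjustment over 15924 genes, 4 of the 31 members were higher in osmolyte-frozen cells and none lower. Of all genes tested, 13.1% were called higher and 16.2% lower, so the share of members called higher, 12.9%, was near the background. With library totals alone as the scaling, 2555 genes were called higher and 1972 lower, in place of 2091 and 2579. The 4 were HIST1H1C, HIST1H2BK, HIST1H2BD and HIST1H4E, and 5 members had an unadjusted p under the 0.05 threshold. DESeq2 called 6 members, adding HIST2H2BE and HIST2H2BF. Libraries of the 2 groups did not overlap for 8 members higher and 2 lower, with 28.7% and 27.5% of all genes so placed. The median log2 fold change was 0.43 over the 31 members and 0.04 over all genes tested.

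HIST1H1C encodes the linker histone H1.2, and its deposited span in hg19 is chromosome 6 from 26055968 to 26056699. It stood at 9.76 CPM in fresh cells at 0 h, 8.37 in those kept 1 h with DMSO and 8.69 in those kept 1 h in medium. In frozen cells it stood at 6.79 and 7.43 CPM with DMSO after 0 h and 1 h, and at 15.8, 12.9 and 13.7 CPM with SGC, SGI and SMC. The groups did not overlap, with osmolyte-frozen cells highest and DMSO-frozen cells lowest. The osmolyte-frozen mean of HIST1H1C was 14.2 ± 1.51 CPM (SD, n = 3), 1.99-fold above the 7.11 ± 0.454 (n = 2) of DMSO-frozen cells, with an edgeR log2 fold change of 0.99 (SE 0.13, adjusted p = 2.03e-05). Its call held in each alternative run. HIST1H1E, another linker histone, had a log2 fold change of -0.24 and did not pass the edgeR test (adjusted p = 0.656).

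HIST1H2BK, an H2B gene, spans chromosome 6 from 27106072 to 27114637 in hg19. It stood at 12.9, 12.1 and 11.7 CPM in fresh cells, at 11.3 and 10.2 in cells frozen in DMSO after 0 h and 1 h, and at 17.3, 13.1 and 15.1 with SGC, SGI and SMC. All osmolyte-frozen libraries were above all others, SGI by little. HIST1H2BK was 1.41-fold higher in osmolyte-frozen than in DMSO-frozen cells, at 15.2 ± 2.06 CPM (SD, n = 3) against 10.8 ± 0.75 (n = 2), by edgeR (log2 fold change 0.49, SE 0.12, adjusted p = 0.00563). Without the library frozen in DMSO after 1 h, the edgeR adjusted p was 0.0701.

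HIST1H2BD, a further H2B gene, spans chromosome 6 from 26158349 to 26171576 in hg19. Its level was 2.64, 3.37 and 3.01 CPM in fresh cells, 2.88 and 3.72 in cells frozen in DMSO after 0 h and 1 h, and 5.76, 3.73 and 5.38 with SGC, SGI and SMC. SGC and SMC were clear of the other libraries, while SGI lay next to the higher DMSO-frozen library. The osmolyte-frozen mean of HIST1H2BD was 4.96 ± 1.08 CPM (SD, n = 3), 1.5-fold above the 3.3 ± 0.59 (n = 2) of DMSO-frozen cells by edgeR (log2 fold change 0.59, SE 0.20, adjusted p = 0.0372). The edgeR adjusted p was 0.102 without SMC, 0.173 without SGC and 0.318 without the library frozen in DMSO after 0 h.

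HIST2H2BE, also H2B, had one library far from the rest. It stood at 8.01, 7.15 and 8.84 CPM in fresh cells, at 7.74 and 7.52 in DMSO-frozen cells and at 15.4, 9.2 and 8.11 with SGC, SGI and SMC. Its log2 fold change against DMSO-frozen cells was 0.52 and did not pass the edgeR test (adjusted p = 0.129). DESeq2 gave an adjusted p of 0.048, and edgeR without SMC one of 0.021. HIST1H2BC stood between 0.75 and 1.47 CPM in the 8 libraries, with an edgeR adjusted p of 0.388.

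No H2A gene passed. HIST1H2AC, the most abundant of them, stood at 8.91, 6.87 and 7.48 CPM in fresh cells, at 7.7 and 9.31 with DMSO after freezing, and at 6.43, 6.07 and 8.65 with SGC, SGI and SMC. The groups overlapped, and the log2 fold change of -0.27 against DMSO-frozen cells had an edgeR adjusted p of 0.219. Without SMC, HIST1H2AC was lower at -0.47 (edgeR adjusted p = 0.0348). HIST3H2A had a log2 fold change of 0.16 (edgeR adjusted p = 0.729), which was -0.14 without the library frozen in DMSO after 0 h. Of the 3 H3 genes tested, HIST1H3E, HIST1H3D and HIST1H3H had log2 fold changes of 0.58, 0.48 and -0.74, with edgeR adjusted p-values of 0.369, 0.491 and 0.289.

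HIST1H4E, one of the genes for H4, spans chromosome 6 from 26204873 to 26205249 in hg19. It stood at 0.448, 0.546 and 1.36 CPM in fresh cells, at 0.316 and 0.306 in DMSO-frozen cells and at 0.759, 1.04 and 0.733 with SGC, SGI and SMC. The DMSO-frozen libraries were the lowest of the 8, with 16 and 14 counts after 0 h and 1 h, and the fresh library after 1 h in medium the highest. At so few counts the counting error is larger than the SD of these 2 libraries given below. HIST1H4E was 2.7-fold higher in osmolyte-frozen than in DMSO-frozen cells, at 0.844 ± 0.171 CPM (SD, n = 3) against 0.311 ± 0.00693 (n = 2), by edgeR (SE 0.49 on the log2 scale, adjusted p = 0.0353). Its edgeR adjusted p was 0.0599 without SGC, 0.116 without SGI, 0.137 without the library frozen in DMSO after 1 h and 0.162 without that after 0 h. HIST1H4H had a log2 fold change of 0.43 (edgeR adjusted p = 0.444), which was 1.29 without the library frozen in DMSO after 1 h and -0.13 without that after 0 h.

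**Figure D3:**
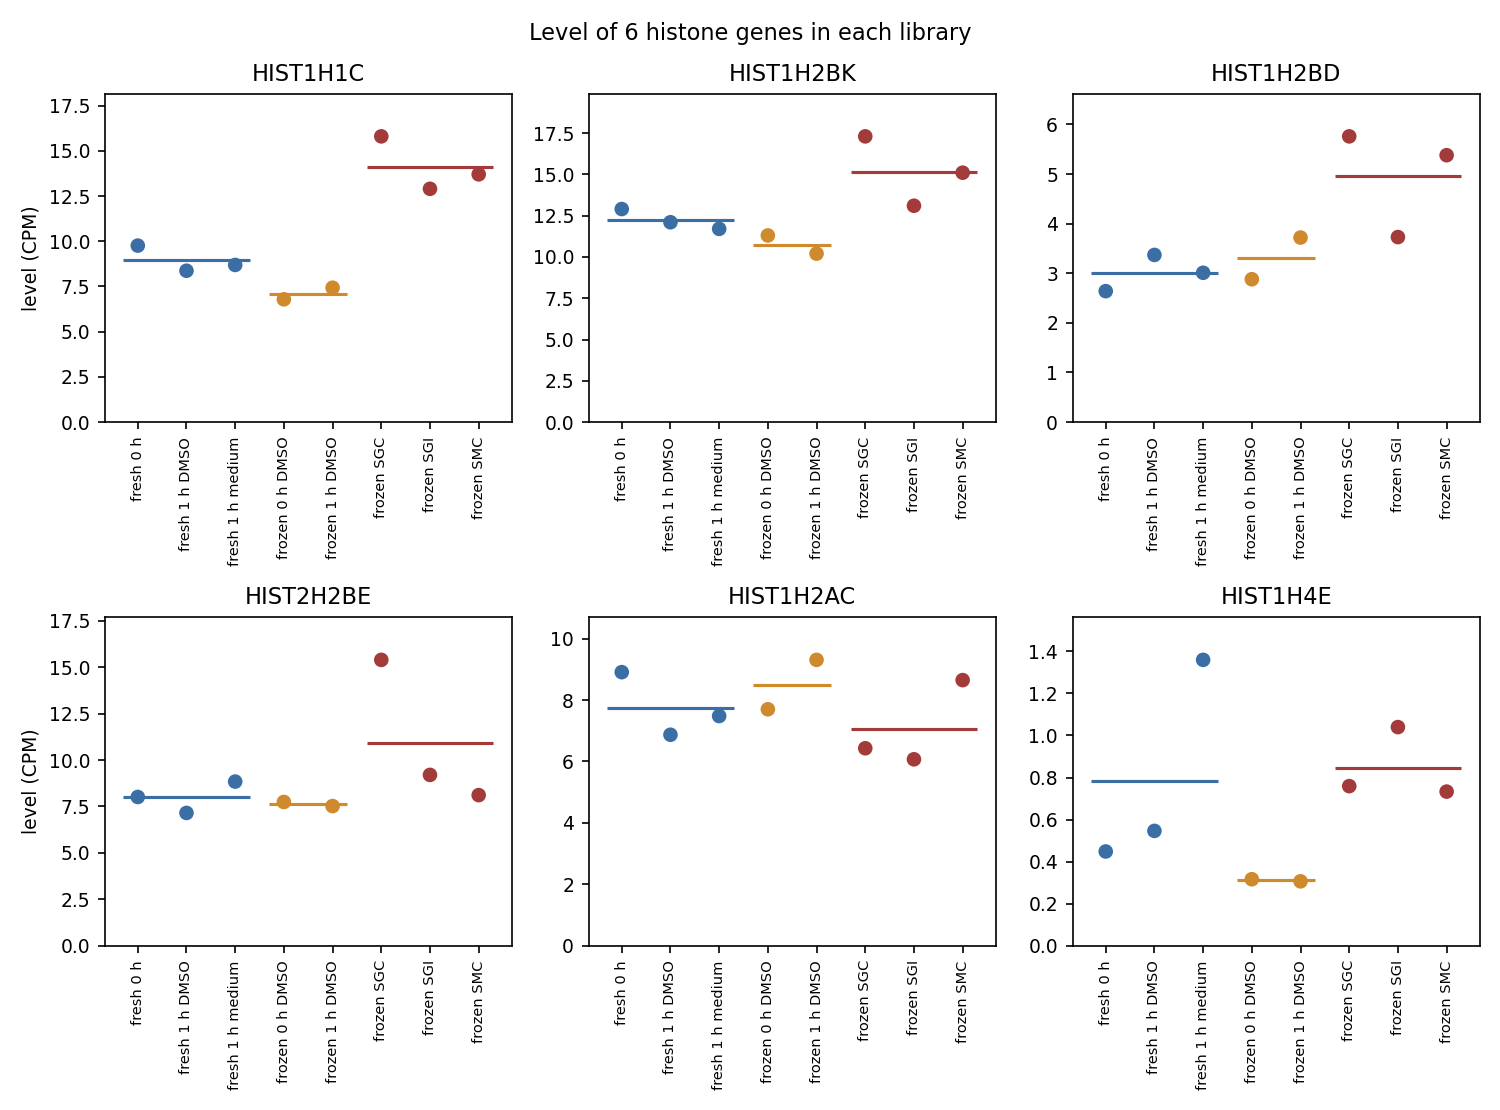
CPM of 6 histone genes in each of the 8 libraries (points) with group means (lines) and y axes from 0. HIST1H1C, at 12.9 to 15.8 CPM, and HIST1H2BK, at 13.1 to 17.3, are higher in every osmolyte-frozen library (red) than in any other, while HIST2H2BE is high in SGC alone, at 15.4.

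Against fresh cells, 3 of the 31 members were higher in osmolyte-frozen cells and none lower by edgeR, with 18.6% of all genes called higher and 20.7% lower. Libraries did not overlap for 4 members higher and 1 lower, with 24.5% and 24.6% of all genes so placed. HIST1H1C was 1.58-fold higher, at 14.2 CPM against 8.94 ± 0.726 (SD, n = 3), by edgeR (log2 fold change 0.66, SE 0.11, adjusted p = 0.000127). HIST1H2BD was 1.65-fold higher than its fresh level of 3.01 ± 0.363 CPM, with an edgeR adjusted p of 0.00434. HIST1H2BK was 1.24-fold higher than its fresh level of 12.2 ± 0.653 CPM, with an edgeR adjusted p of 0.0306. That last call was lost in edgeR without SGC (adjusted p = 0.231), SMC (0.0669), fresh 1 h with DMSO (0.0752) or fresh 1 h in medium (0.0768). HIST1H4E had a log2 fold change of 0.12 against fresh cells (edgeR adjusted p = 0.838). That value was 0.76 without the fresh library kept in medium and -0.18, -0.09 and -0.06 without fresh 0 h, fresh 1 h with DMSO and SGI. HIST2H2BE had 0.45 (edgeR adjusted p = 0.116; DESeq2 0.0439; edgeR without SMC 0.0156). This comparison shares its osmolyte-frozen libraries with the one above.

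Between DMSO-frozen and fresh cells, none of the 31 members passed the edgeR test in either direction. DESeq2 gave an adjusted p for 10 of the 31, none past the threshold, and none for the other 21, HIST1H4E among them. Of all genes tested, 1.22% were called higher and 0.603% lower by edgeR. The 2 members with an unadjusted p under the threshold were HIST1H1C and HIST1H4E, with edgeR adjusted p-values of 0.261 and 0.24. HIST1H1C stood below every fresh library in both DMSO-frozen libraries. In all, 10 of the 31 members lay wholly below the fresh libraries and 1 wholly above, with 15.4% of all genes wholly below and 15.9% wholly above.

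**Figure D4:**
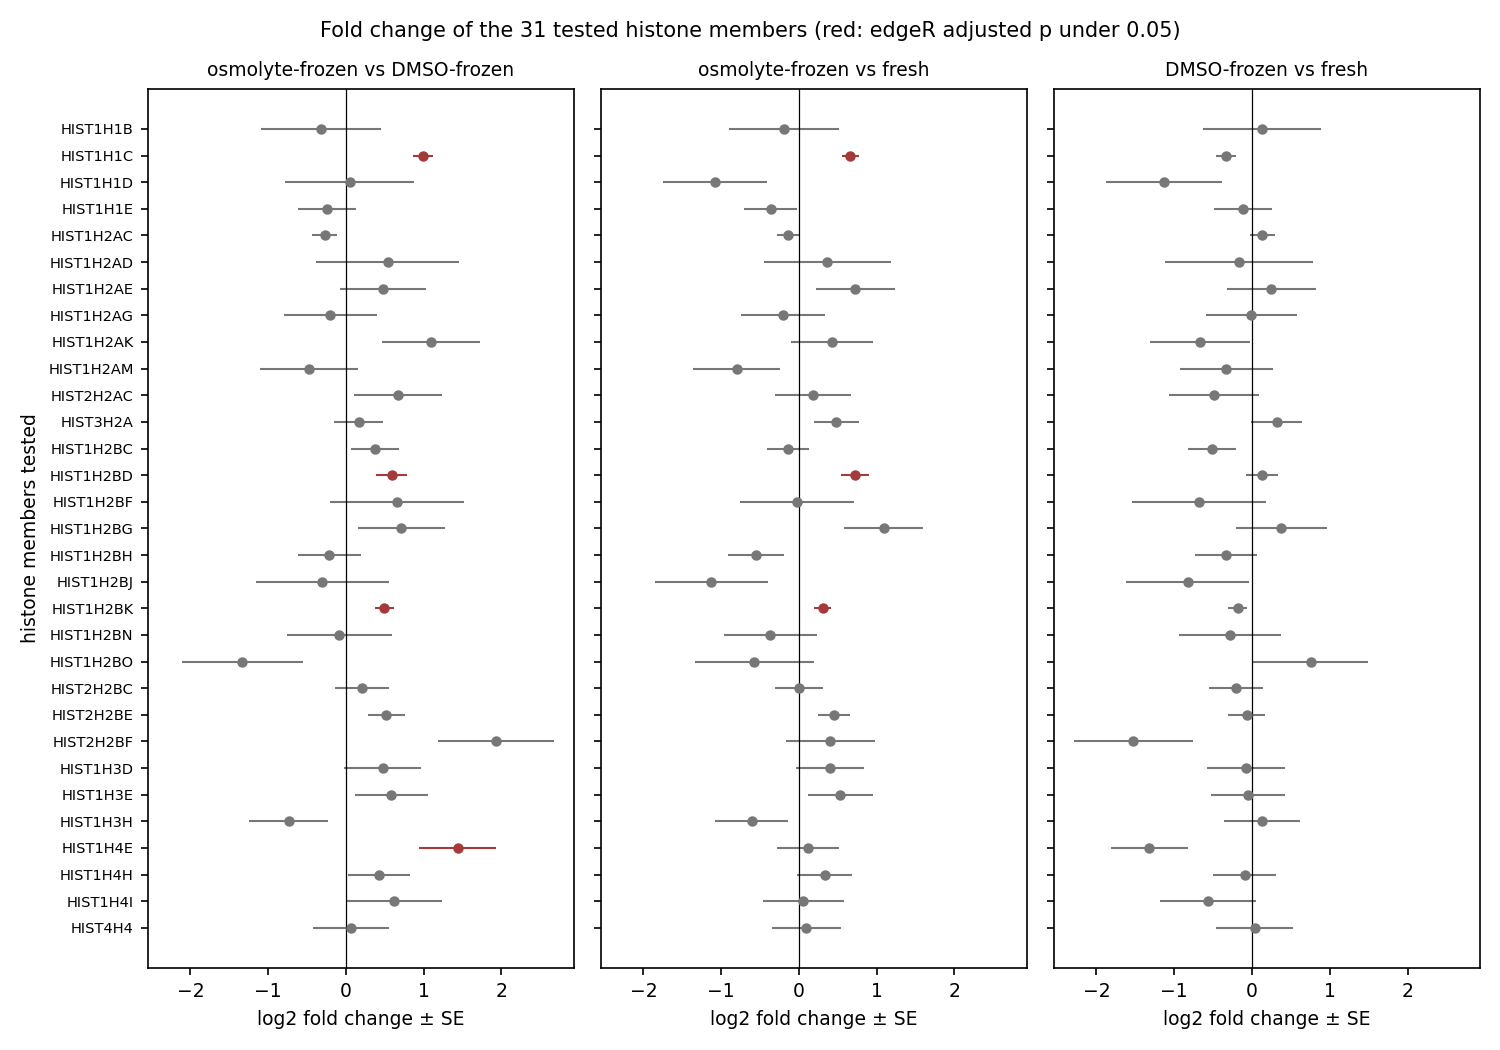
edgeR log2 fold change (x axis) with its SE (bars) for the 31 tested members (rows), in each of the 3 comparisons; red points have an adjusted p under 0.05. HIST1H1C, HIST1H2BD and HIST1H2BK are red in both comparisons of osmolyte-frozen cells, HIST1H4E only against DMSO-frozen cells, and no point is red between DMSO-frozen and fresh cells.

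Conditions with 1 library each were also set side by side, without a test. A pair was counted as apart at 2-fold or more, on the scale of CPM with a prior count of 2, where the higher library had at least 50 counts. Shares of genes given for the pairs are of all genes that met this minimum. After 1 h with DMSO, fresh cells had HIST3H2A at 92 counts against 36 after 1 h in medium, 2.33-fold higher. In the same pair HIST1H4H was at 26 against 56 counts and HIST1H4E at 24 against 56, 2.21-fold and 2.38-fold lower. Thus 1 of 10 members with enough counts was apart upward and 2 downward, with 0.466% and 0.769% of genes with enough counts apart in these directions. Here and in the pairs below, members apart had no more than 92 counts in a library. Such low counts scatter more between libraries, so these shares do not show that histone members vary more than other genes.

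Both H4 genes varied between other libraries as well. HIST1H4E had 56 counts after 1 h in medium and 20 in fresh cells at 0 h, 2.85-fold higher, the only one of 10 members apart, with 0.417% of genes apart in each direction. HIST1H4H had 68 counts in cells frozen in DMSO after 1 h, against 26 in fresh cells after 1 h with DMSO. That was 2.41-fold higher and the only one of 9 members apart, with 0.617% of genes apart upward and 0.378% downward. Against the 28 counts of cells frozen in DMSO after 0 h it was 2.56-fold higher and the only one of 7 members apart, with 0.237% of genes apart upward and 0.153% downward. Between SMC, SGC and SGI no member with enough counts was 2-fold apart. Genes higher and lower were 0.363% and 0.551% for SMC against SGC, 0.24% and 0.884% for SMC against SGI, and 0.127% and 0.389% for SGC against SGI.

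Genes that make, process or use histone mRNA were read from lists chosen for this purpose. Of 19 genes of histone mRNA control, 4 fell in osmolyte-frozen against DMSO-frozen cells and none rose, where 16.2% of all genes were called lower. They were CPSF2, a subunit of the cleavage complex (1.56-fold, edgeR adjusted p = 8.77e-06), ERI1, an exonuclease that trims the histone mRNA end (1.46-fold, 0.000242), ZNF473, a zinc finger protein of the U7 machinery (1.34-fold, 0.0226), and NPAT, the coactivator of histone gene transcription (1.28-fold, 0.0343). Against fresh cells CPSF2 and ERI1 fell 1.53-fold and 1.42-fold by edgeR, and HINFP, which activates H4 genes, rose 1.26-fold. In that comparison 20.7% of all genes were called lower and 18.6% higher. SLBP, the stem-loop binding protein, stood between 31.3 and 41.4 CPM in the 8 libraries and did not pass edgeR in any comparison (adjusted p = 0.318 between the frozen groups). With library totals alone as the scaling, 2 of the 19 fell and 2 rose between the frozen groups. Of 15924 genes, 1972 were then called lower and 2555 higher. None of the 19 changed between DMSO-frozen and fresh cells.

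Genes of DNA replication mark the S phase in which histone mRNA is made. Of 42 such genes, 17 fell and none rose in osmolyte-frozen against DMSO-frozen cells, where 16.2% of all genes were called lower, with a median log2 fold change of -0.26 against 0.04 for all genes. With library totals alone as the scaling, 10 fell and 1 rose, where 1972 of 15924 genes were called lower and 2555 higher. RRM1, which encodes the large subunit of ribonucleotide reductase, was 1.59-fold lower by edgeR (adjusted p = 1.34e-05). Against fresh cells, where 20.7% of all genes were called lower, 21 fell and 1 rose, led by TK1, thymidine kinase, 1.7-fold lower by edgeR (adjusted p = 3.14e-06). TK1 was also the only one of the 42 to change between DMSO-frozen and fresh cells, 1.33-fold lower (edgeR adjusted p = 0.0477), a call lost with library totals alone. Of all genes, 0.603% were called lower there by edgeR. Of 19 histone chaperones, 8 fell in osmolyte-frozen against DMSO-frozen cells, beside 16.2% of all genes. Among them were SUPT16H and SSRP1, the FACT subunits, 1.38-fold and 1.33-fold lower. With library totals alone 4 chaperones fell and 1 rose, beside 1972 genes lower and 2555 higher of 15924. Against fresh cells 14 chaperones fell, beside 20.7% of all genes, and 1, HJURP, rose, while none of them changed between DMSO-frozen and fresh cells.

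Of the 12 replication-independent histone genes, H2AFV alone changed between the frozen groups, 1.17-fold lower with osmolytes by edgeR (adjusted p = 0.0344). This was beside 16.2% of all genes called lower, and with library totals alone none of the 12 changed. Against fresh cells, osmolyte-frozen cells had H3F3C higher and H1F0, H3F3B, H2AFV and H2AFZ lower, beside 18.6% and 20.7% of all genes. H1F0 encodes the linker histone H1.0, typical of cells that have stopped dividing, and fell 1.37-fold by edgeR (adjusted p = 9.18e-05), where HIST1H1C rose. H1F0 and H2AFJ were also lower in DMSO-frozen than in fresh cells, 1.27-fold and 1.34-fold by edgeR (adjusted p = 0.0352 and 0.0468), beside 0.603% of all genes.

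RNAs without a usual poly(A) tail were read beside the histone mRNAs, since both depend on how RNA was captured. Of 18 listed, 13 were in the table and 7 entered the test. MALAT1, a long nuclear RNA that ends in a triple helix in place of a tail, rose 2.05-fold in osmolyte-frozen against DMSO-frozen cells. NEAT1, also a long nuclear RNA, rose 1.92-fold (edgeR adjusted p = 4.23e-07 for MALAT1 and 0.0123 for NEAT1). In that comparison 13.1% of all genes were called higher, and the other 5 listed RNAs did not pass the edgeR test. Counts are per gene, so NEAT1 transcripts with different ends were not told apart. The 6 markers of pluripotent stem cells also moved with the groups. They summed to 6.94 to 8.01 CPM in fresh, 6.34 to 6.52 in DMSO-frozen and 9.73 to 12.6 in osmolyte-frozen libraries, with SOX2 at 0 in 4 libraries and TDGF1 at 0 in 2. The 2 epithelial markers summed to 0.985 to 1.6, 1.86 to 2.14 and 2.26 to 3.12 CPM. The 4 endothelial markers did not separate the groups, at 2.33 to 3.3, 2.57 to 2.58 and 2.65 to 3.03 CPM. The part of these RNAs and cell types in the histone levels was not tested.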

How the data were processed

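Per the labels' protocols, a miRNeasy kit was used for RNA and an Illumina protocol for libraries. CASAVA 1.9, TopHat 12.0.6, HTSeq and hg19 are listed in the submitters' processing notes. Annotation release, strand setting and RNA selection were not given in the sources used here. In all, the authors deposited 1 table with counts and RPKM per gene and library, per the file headers. Deposited counts were whole numbers, with 0 odd values, and were used as they stood. Deposited RPKM values were used only to compare levels between genes. Of 23398 entries, repeats of 49 identifiers were reduced to leave 23354 genes, and no histone identifier was repeated.

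Groups came from the sample titles: 3 fresh, 2 DMSO-frozen and 3 osmolyte-frozen libraries. The test was edgeR 4.0.16 (R 4.3.3), fitted once to the 3 groups (5 residual degrees of freedom), after filterByExpr by group and scaling by the trimmed mean of M-values. Tests were glmQLFTest with robust estimation and Benjamini-Hochberg adjustment at 0.05 over 15924 genes. The biological coefficient of variation was 0.0974. Levels are CPM as mean ± SD, and SE is that of the log2 fold change. The script was tested on simulated data. Single-library pairs used a prior count of 2, a fold of 2 and a count of at least 50. Alternatives were DESeq2 1.42.0, other scalings, halved counts, no filter, only the 2 groups compared, and leaving out each library. With halved counts, edgeR called the same 4 members higher in osmolyte-frozen than in DMSO-frozen cells and the same 3 higher than in fresh cells.

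The members and gene lists were chosen with earlier results of these data known. Named were the 3 members of each type highest in RPKM, those past the threshold, those next to the count threshold, and the 6 genes known for polyadenylated mRNA. From other lists, up to 8 past the threshold, SLBP and NPAT could be named. HIST1H4I, HIST2H2BC, HIST2H2BF, HIST1H2BG, HIST1H2BJ and HIST1H3J were named after their values were seen. Stem-loops came from GENCODE 29 (GRCh38) transcripts, promoters from RefSeq (GRCh38.p14), and deposited positions are hg19; the builds were not mixed.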

Additional observations from a re-analysis of the deposited data

How the results depend on the processing

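The members named by rule for level, test or polyadenylated mRNA kept their direction in all alternatives run wherever they had passed the edgeR test. Over these 16 members and 3 comparisons, 6 of the recomputed values came past the threshold and 12 fell out. Outside them, HIST2H2BF passed between the frozen groups with DESeq2 and without the library frozen in DMSO after 1 h, and HIST1H2BG against fresh cells without fresh 1 h with DMSO and without SMC. Osmolyte-frozen against DMSO-frozen, leaving out 1 library at a time gave 2122 genes called (without the library frozen in DMSO after 0 h) to 5254, against 4670, 2 to 4 members higher (2 without SGC and without that same DMSO library), and up to 1 lower, HIST1H2AC without SMC. DMSO-frozen against fresh gave 290 genes called, 499 with DESeq2, and 99 to 310 leaving out 1 library, with 99 or 106 without the library frozen in DMSO after 1 h or 0 h. Osmolyte-frozen against fresh gave 2 members lower with no filter on low counts, HIST1H3F and HIST1H3J, 1 without SMC, HIST1H2BJ, and the same 2 as with no filter without either DMSO-frozen library, against 0 in the test reported. HIST3H2A passed there without fresh 1 h with DMSO (log2 fold change 0.87, edgeR adjusted p = 0.0318). The H2B sum of DMSO-frozen libraries was 25.2 CPM by library totals alone, against 25.7. No paired analysis was possible because the labels carry no replicate numbers. Depth limits the weak members: a count of 0 allows 6 counts, or 0.118 to 0.147 CPM, and HIST2H2BF was at 0 in cells frozen in DMSO after 0 h.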

Other observations

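Some values stood outside the comparisons. The fresh library after 1 h with DMSO had the highest sum of the 48 members outside the 6 genes known for polyadenylated mRNA, at 15.9 CPM, and cells frozen in DMSO after 0 h the lowest, at 10.4. HIST1H3F had 2, 10 and 4 counts in the 3 fresh libraries, 4 in cells frozen in DMSO after 1 h and 0 in the other 4 libraries. HIST1H4K had 10 counts with SMC, 6 with SGI, 2 in each of 2 fresh libraries and 0 in the rest. At such counts no difference between single libraries can be read.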
